A study of Mus musculus with 2 samples.

Results

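Interleukins and their receptor chains were examined for H3K4me3 at transcript starts in lung group 2 innate lymphoid cells (ILC2s) of adult mice. The genes were the autosomal protein-coding genes of the GENCODE vM21 annotation whose symbol begins with Il and a digit, apart from 21 interleukin genes left out by name, among them the type 2 cytokines Il4, Il5 and Il13 and the receptor genes Il1rl1 and Il7r. This left 56 of 20807 autosomal protein-coding genes, namely 32 ligands, 22 receptor chains and 2 genes of another kind. A peak was counted at a gene when its nearest base lay within 1000 bp of any annotated transcript start of that gene, and is called a start peak.

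ILC2s came from 8-week-old offspring of mothers given PBS (control mothers) or ovalbumin (OVA, asthmatic mothers). With 1 library per group there are no replicates, and no test between the groups was possible. All mothers were C57BL/6J females, 6 to 8 weeks old at sensitization, that received alum intraperitoneally on days -21 and -7, with 100 µg OVA in the asthmatic group and without it in the control group, and were then mated with untreated males. While pregnant, between gestation days 4 and 17, the asthmatic mothers repeatedly received 500 µg OVA intranasally and the control mothers PBS. Offspring of both sexes were used. ILC2s were sorted as CD45+ Lin- ST2+ cells, and the study's reporting summary adds Thy1 as a further sorting marker for adult lungs. Each library was made from about 3000 cells by CATCH-seq, which immunoprecipitates nucleosomes from unfixed chromatin digested by micrococcal nuclease. Each group came from 1 experiment with 1 pregnant dam, so the litter and the maternal treatment cannot be told apart. The list of peaks deposited for the control library held 42126 peaks and that for the asthmatic library 51610 peaks. The study states the sequencing depth only as a total, and these lists hold no read totals, so the depth of each library is unknown. Of 12 ILC2 marker genes, 10 had a start peak in the control list and 8 in the asthmatic list, where Gata3 and Il7r had none. Icos and Klrg1 had none in either list. None of the markers of T cells, B cells, macrophages, neutrophils, mast cells and basophils or fibroblasts had one, while 2 of 4 epithelial markers (Epcam and Cdh1) and 1 of 3 endothelial markers (Kdr) had one in the control list alone. The part of such cells in the values below was not tested.

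Interleukins are secreted proteins by which immune and tissue cells signal to each other, and most act through receptors built of a chain specific to the ligand and a chain shared by several ligands. For ILC2s, signals of this kind include IL-33, IL-25 and IL-7, which come from epithelial and stromal cells. ILC2s are themselves a source of type 2 cytokines. H3K4me3 is found on nucleosomes around the starts of active genes and of many genes with CG-rich promoters, so a start peak describes the state of the promoter and not the amount of transcript.

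Promoter sequences are shown for the genes that frame the result, from the RefSeq promoter table on GRCm38.p6, in which 43 of the 56 genes were matched. Each runs 5′ to 3′ on the strand of the gene, from 250 bases before to 50 bases after a RefSeq start, with every CG dinucleotide in capitals. The first pair comes from receptor chains with start peaks in both lists that ranked high in 1 of them: Il15ra (chr2:11705462-11705761, plus strand, 15 CG), the chain that binds IL-15 and presents it to other cells, and Il6st (chr13:112463820-112464119, plus strand, 33 CG), which encodes gp130, the chain shared by receptors of the IL-6 family.
Il15ra: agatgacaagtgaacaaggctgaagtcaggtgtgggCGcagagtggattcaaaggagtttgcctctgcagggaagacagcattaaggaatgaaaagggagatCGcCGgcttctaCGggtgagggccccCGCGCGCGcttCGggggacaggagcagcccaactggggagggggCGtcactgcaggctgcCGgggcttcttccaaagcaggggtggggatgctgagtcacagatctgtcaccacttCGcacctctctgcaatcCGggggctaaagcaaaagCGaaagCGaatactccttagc
Il6st: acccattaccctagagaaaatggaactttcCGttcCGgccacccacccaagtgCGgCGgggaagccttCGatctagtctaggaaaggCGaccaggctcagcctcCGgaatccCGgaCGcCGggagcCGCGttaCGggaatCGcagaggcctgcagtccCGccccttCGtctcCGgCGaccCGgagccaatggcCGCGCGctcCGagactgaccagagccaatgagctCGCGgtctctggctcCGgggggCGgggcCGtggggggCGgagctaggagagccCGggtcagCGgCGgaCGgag
The second pair comes from genes whose start peaks did not lie over the RefSeq window shown: Il4i1 (chr7:44836038-44836337, plus strand, 3 CG), which encodes a secreted amino acid oxidase induced by IL-4, and Il16 (chr7:83655446-83655745, minus strand, 4 CG), which encodes a precursor cleaved to a chemoattractant for CD4+ cells. The Il4i1 window began 19098 bp beyond the end of the start peak of the control list, and the Il16 window directly adjoined that of the control list.
Il4i1: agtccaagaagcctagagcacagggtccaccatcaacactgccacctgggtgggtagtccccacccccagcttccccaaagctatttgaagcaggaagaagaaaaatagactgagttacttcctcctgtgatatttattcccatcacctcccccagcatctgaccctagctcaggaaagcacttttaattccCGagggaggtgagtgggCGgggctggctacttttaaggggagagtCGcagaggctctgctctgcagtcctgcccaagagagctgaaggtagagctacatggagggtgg
Il16: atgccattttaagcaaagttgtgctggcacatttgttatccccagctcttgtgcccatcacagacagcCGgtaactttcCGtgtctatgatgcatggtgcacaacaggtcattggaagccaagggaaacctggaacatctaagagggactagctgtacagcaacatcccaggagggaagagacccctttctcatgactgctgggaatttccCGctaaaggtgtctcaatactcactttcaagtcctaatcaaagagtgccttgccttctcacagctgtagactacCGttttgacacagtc
The last 3 come from ligands that had no start peak in either list although a chain of their receptor did: Il33 (chr19:29924863-29925162, plus strand, 6 CG), which signals through Il1rap, Il22 (chr10:118204714-118205013, plus strand, 4 CG), which signals through Il10rb, and Il11 (chr7:4782808-4783107, minus strand, 1 CG), which signals through Il6st. These ligands, and Il16, were picked after their values were seen.
Il33: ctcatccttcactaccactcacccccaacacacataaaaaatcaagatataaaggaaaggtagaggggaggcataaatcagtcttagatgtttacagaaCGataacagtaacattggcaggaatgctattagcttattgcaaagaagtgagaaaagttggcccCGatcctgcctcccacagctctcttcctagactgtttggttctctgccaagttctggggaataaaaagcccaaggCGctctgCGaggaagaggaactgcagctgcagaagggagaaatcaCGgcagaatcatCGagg
Il22: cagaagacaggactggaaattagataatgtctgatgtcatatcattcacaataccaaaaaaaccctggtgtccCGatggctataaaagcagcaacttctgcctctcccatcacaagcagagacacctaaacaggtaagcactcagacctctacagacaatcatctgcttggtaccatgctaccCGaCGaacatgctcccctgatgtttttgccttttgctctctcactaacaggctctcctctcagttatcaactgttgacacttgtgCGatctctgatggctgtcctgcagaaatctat
Il11: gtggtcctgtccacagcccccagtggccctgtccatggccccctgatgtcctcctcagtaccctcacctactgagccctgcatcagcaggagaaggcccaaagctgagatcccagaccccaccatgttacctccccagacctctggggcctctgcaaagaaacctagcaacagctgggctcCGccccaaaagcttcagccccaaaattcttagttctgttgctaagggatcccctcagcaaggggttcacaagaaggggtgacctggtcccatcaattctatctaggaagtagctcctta
The Il6st window was dense in CG, whereas those of the 3 ligands held few.

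A start peak was present at 14 of the 56 genes (25%, exact Clopper-Pearson 95% interval 14.4 to 38.4%) in adult offspring of control mothers, against 52.5% of all autosomal protein-coding genes. In adult offspring of asthmatic mothers it was present at 12 of 56 (21.4%, 11.6 to 34.4%), against 43.7% of all genes. In both lists the interleukin genes lay below the share of all genes, and both shares of all genes lay above the upper bounds for the interleukin genes. Both lists held a start peak at 11 of the genes (19.6%, 10.2 to 32.4%), against 43.1% of all genes. The control list alone had one at 3 genes, Il6ra, Il12a and Il17d (5.36%, against 9.37% of all genes). The asthmatic list alone had one at 1 gene, Il31ra (1.79%, 95% interval 0.0452 to 9.55%, against 0.634% of all genes). This call was lost, with 0 genes left, when only starts of protein-coding transcripts, only peaks with a −log10 q of at least 5, only the 10000 peaks of each list with the highest −log10 p or only peaks whose summit bases have no exact copy elsewhere in the genome were counted. Of the 21 interleukin genes left out by name, 11 had a start peak in the control list and 7 in the asthmatic list. Intervals cover counting error only, and genes are not replicates of a condition.

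Of 22 receptor chains, 8 had a start peak in each list (36.4%, 95% interval 17.2 to 59.3%), with 7 in both. Of 32 ligands, 5 had one in the control list (15.6%, 5.28 to 32.8%) and 3 in the asthmatic list (9.38%, 1.98 to 25.0%). The intervals of ligands and receptor chains overlapped in each list. The shares of all genes, 52.5% and 43.7%, lay inside those of the receptor chains and above those of the ligands. Il7, Il15 and Il16 were the ligands marked in both.

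**Figure D1:**
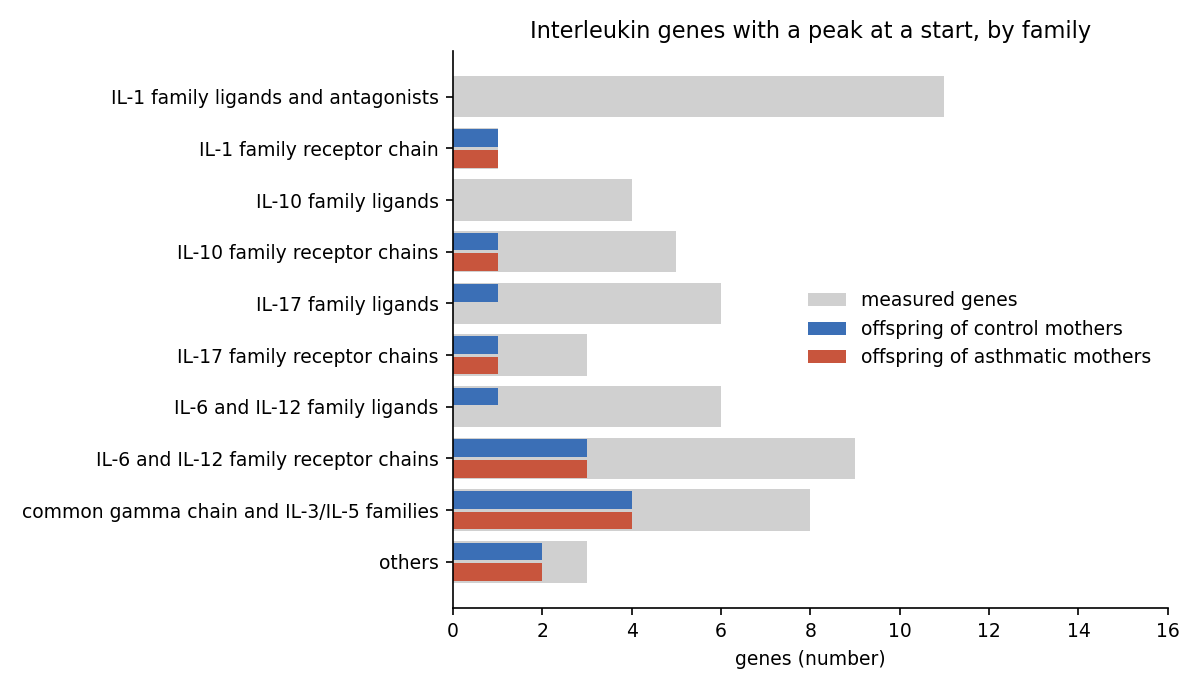
Number of interleukin genes with a start peak (x axis) in each family (y axis). Grey bars give the genes examined, blue bars those with a start peak in adult offspring of control mothers and red bars those in adult offspring of asthmatic mothers. None of the 11 IL-1 family ligands and antagonists and none of the 4 IL-10 family ligands was marked, and 4 of 8 genes of the common gamma chain and IL-3/IL-5 families were marked in both.

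In the common gamma chain and IL-3/IL-5 families, Il15ra, Il15, Il7 and Il3ra had start peaks in both lists, and Il2, Il21, Il21r and Il5ra had none in either. The Il15ra peak of the control list (chr2:11705390-11706369, 980 bp) had a −log10 q of 16.5, where q is the false discovery rate that the authors' peak caller gave the peak against its local background. From the fold and p of each peak the number of fragments at its summit was solved, which gave 31 for Il15ra in the control list (exact Poisson 95% interval 21.1 to 44.0) and 28 in the asthmatic list (18.6 to 40.5). The asthmatic peak (chr2:11705554-11706197, 644 bp, −log10 q of 17.3) lay within the control peak, and both covered the first exon. Since q depends on the depth of its own library, each gene was also ranked by its strongest start peak among all genes with one in that list. Il15ra stood at the 68.2 percentile of the control list and at the 98.5 percentile of the asthmatic list, where it was the highest of the interleukin genes. A weaker pair of Il15ra peaks, in an intron 951 and 910 bp from the start of a retained-intron transcript, consisted of 100% and 92.7% repeat-masked bases.

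Il7, the survival factor of lymphoid cells that stromal cells release, had a peak (chr3:7612921-7613486, −log10 q of 13.7) with 22 summit fragments (13.8 to 33.3) in the control list. In the asthmatic list (chr3:7613262-7613515, −log10 q of 4.38) it had 11 (5.49 to 19.7). Its rank fell from the 48.4 to the 6.78 percentile, and its width from 566 to 254 bp. Il15, the ligand of Il15ra, had 19 fragments in a peak of 820 bp (chr8:82402276-82403095) in the control list. In the asthmatic list it had 13 fragments in a peak of 186 bp around its upstream edge. Il3ra, the specific chain of the IL-3 receptor, had 25 fragments (16.2 to 36.9) in the control list (chr14:14346159-14346664, −log10 q of 14.7) and stood at the 55.5 percentile. In the asthmatic list (chr14:14346231-14346666, −log10 q of 7.64) it had 17 (9.90 to 27.2), at the 42.3 percentile. Its peaks were 506 and 436 bp wide.

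Among the 9 receptor chains of the IL-6 and IL-12 families, Il6st and Il27ra had start peaks in both lists, Il6ra in the control list alone and Il31ra in the asthmatic list alone. Il6st had 2 peaks in each list, 1 just upstream of its annotated 5′ end and 1 over its first exon, which both reach into the promoter window printed above. In the control list the exon peak (chr13:112464054-112464702) was the stronger, with 36 fragments (25.2 to 49.8) against 20 for the upstream peak (chr13:112463693-112463955). In the asthmatic list the upstream peak (chr13:112463675-112463949) had 15 fragments (8.40 to 24.7) and the exon peak (chr13:112464096-112464554) 14. The lists thus differed by 20 against 15 fragments at the upstream peak and by 36 against 14 at the exon peak. Il6st ranked at the 91.5 percentile in the control list, by its exon peak, and at the 27.6 percentile in the asthmatic list, by its upstream peak. A downward shift at least as far as its -63.8 points was found in 2.88% of the 8968 genes marked in both lists.

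Il27ra, the specific chain of the IL-27 receptor, had 26 fragments in a peak of 544 bp in the control list (chr8:84042076-84042619, −log10 q of 10.8). In the asthmatic list (chr8:84042154-84042524, −log10 q of 4.95) it had 14 (7.65 to 23.5) in a peak of 371 bp. Both ranks were low, the asthmatic one at the 10.4 percentile. Il6ra, the specific chain of the IL-6 receptor, had 18 fragments (10.7 to 28.4) in a narrow control peak of 221 bp (chr3:89912926-89913146), and the nearest peak of the asthmatic list was 49731 bp away. The gene shares signalling through Il6st and had a CG-rich 5′ end, with 25 CG per 300 bases. Il11ra1, Il11ra2, Il12rb1, Il12rb2 and Il23r had no start peak in either list.

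Il31ra, which forms the IL-31 receptor together with Osmr, had a start peak with 11 fragments (5.49 to 19.7) in the asthmatic list (chr13:112594489-112594685), 129 bp upstream of its 5′ end. With a −log10 q of 4.38 Il31ra was, level with Il7 and Il1rap, the interleukin gene with the lowest value in that list. The 75 bases around that summit occurred 6 more times in the assembled genome, whereas the summits of the other start peaks, apart from the intronic pair of Il15ra, occurred nowhere else. Osmr, the partner chain, also had a start peak in the asthmatic list alone, at a −log10 q of 5.17. That call was not put through the alternative settings or the search for copies. The strongest peaks in or near any of the 56 genes were not at a start at all but in an intron of Il31ra, 2261 and 2299 bp from the nearest annotated start and so outside the limit of 1000 bp. The control peak there (chr13:112578099-112578401) had 42 fragments and a −log10 q of 36.7, and the asthmatic peak (chr13:112578130-112578363) had 43 fragments and a −log10 q of 41.7. The Il31ra intron peak did not have fewer fragments in the asthmatic list, and neither did the intronic pair of Il15ra, with 14 in the control list and 17 in the asthmatic list. The summit bases of the Il15ra pair had 4 and 15929 further exact copies, so those fragments cannot be placed with certainty. Repeat-masked bases made up 18.2% and 7.26% of the Il31ra intron peaks. The bases around their summits had 0 further exact copies in the control list and 1 in the asthmatic list. The sequence of the asthmatic peak is shown because the peak outranked every promoter of the group, on the plus strand of GRCm38.p6 and with its 9 CG in capitals.
Il31ra intron: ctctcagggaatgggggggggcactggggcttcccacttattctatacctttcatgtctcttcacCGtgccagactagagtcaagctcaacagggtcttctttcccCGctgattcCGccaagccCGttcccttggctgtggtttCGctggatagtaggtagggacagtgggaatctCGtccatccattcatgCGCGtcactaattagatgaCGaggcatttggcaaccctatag

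Among the 6 ligands of the IL-6 and IL-12 families, Il12a was marked in the control list alone and Il11, Il12b, Il23a, Il27 and Il31 in neither. Il12a encodes the p35 chain of IL-12. Its peak (chr3:68691193-68691519) spanned the start of an inner protein-coding transcript and had 16 fragments (9.15 to 26.0), the fewest of the control start peaks taken by their strongest summit. The nearest asthmatic peak was 8524 bp away.

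The single IL-1 family receptor chain, Il1rap, which joins the receptors of IL-1, IL-33 and IL-36 as their second chain, was marked in both lists, whereas the 11 IL-1 family ligands and antagonists (Il1a, Il1b, Il1rn, Il18, Il18bp, Il33, Il1f5, Il1f6, Il1f8, Il1f9 and Il1f10) were marked in neither. The Il1rap peak of the control list (chr16:26581477-26582212, −log10 q of 15.7) was 736 bp wide with 24 fragments (15.4 to 35.7). That of the asthmatic list (chr16:26581780-26581961) was 182 bp wide with 11 fragments (5.49 to 19.7). Its rank went from the 63.0 to the 6.78 percentile, and a downward shift at least as far was found in 5.04% of the genes marked in both lists.

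In the IL-10 family, Il10rb was marked in both lists and the ligands Il19, Il20, Il22 and Il24 and the other chains Il20ra, Il20rb, Il22ra1 and Il22ra2 in neither. Il10rb is the chain shared by the receptors of IL-10, IL-22 and type III interferons. It had 27 fragments (17.8 to 39.3) in the control list (chr16:91406185-91406934, −log10 q of 15.9) and 18 (10.7 to 28.4) in the asthmatic list (chr16:91406232-91406809, −log10 q of 10.4), at the 64.4 and 73.7 percentiles.

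In the IL-17 family, the receptor chain Il17rd was marked in both lists, the ligand Il17d in the control list alone, and Il17a, Il17b, Il17c, Il17f, Il25, Il17rc and Il17re in neither. Il17rd had a single control peak of 696 bp (chr14:27038986-27039681) with 18 fragments, in whose place the asthmatic list had 2 peaks of 453 and 227 bp with 14 and 16. The Il17d peak (chr14:57525274-57525702) began 497 bp downstream of the start, reached its second exon and had 18 fragments (10.7 to 28.4). The nearest asthmatic peak was 29018 bp away.

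Of the remaining 3 genes, Il16 and Il4i1 were marked in both lists and Il34, a ligand of the CSF1 receptor, in neither. The Il16 peaks lay far inside the gene, with summits 90831 and 90650 bp downstream of its 5′ end, over exon 13 and the start of a retained-intron transcript. They had 24 fragments in the control list (chr7:83654669-83655445) and 17 in the asthmatic list (chr7:83654825-83655398). No start peak was found at the GENCODE 5′ end of Il16 itself. The control peak did adjoin the promoter window printed above, directly on its downstream side, and so lay close to an inner RefSeq start. The Il4i1 peaks (chr7:44816356-44816940 in the control list) lay at an upstream start shared with Nup62 and within 1000 bp of a start of Atf5, so that they cannot be assigned to Il4i1. They had 35 fragments (24.4 to 48.7) in the control list and 16 (9.15 to 26.0) in the asthmatic list. A second peak with 13 fragments and a −log10 q of 5.55 lay at an inner Il4i1 start (chr7:44839349-44839598) in the asthmatic list alone, 8893 bp from the nearest control peak.

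**Figure D2:**
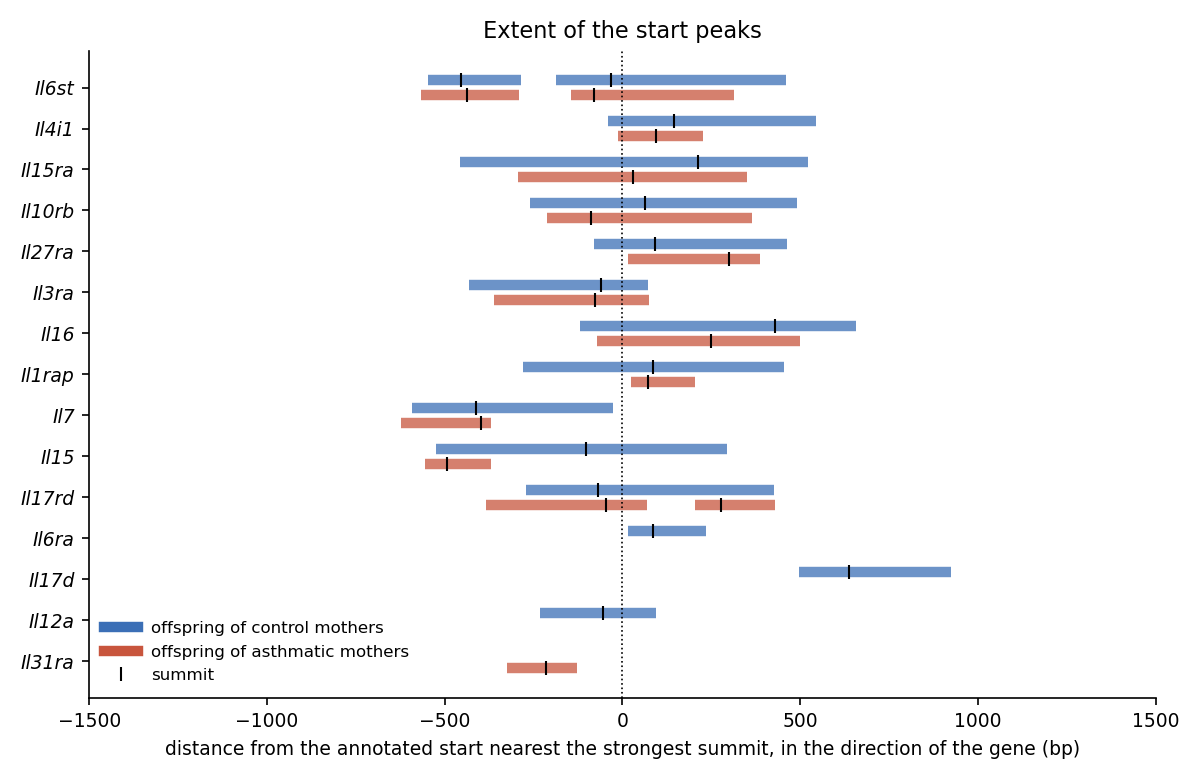
Extent of the start peaks of the 15 marked genes, as distance in bp (x axis) from the annotated start nearest the strongest summit, in the direction of the gene. Blue bars are peaks in adult offspring of control mothers, red bars those of asthmatic mothers and ticks the summits; the intronic pair of Il15ra and the inner Il4i1 peak lie beyond the axis. At Il1rap, Il7 and Il15 the red bar covers only a part of the blue one, and at Il17rd it is split in 2.

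Each list held 16 start peaks at the 56 genes. Of those of the control list 13 (81.2%) overlapped a peak of the other list, against 70.9% of start peaks of all genes, and of those of the asthmatic list 14 (87.5%) did, against 95.9%. When the overlap had to cover at least 50% of both peaks, 8 of the 16 in each list (50%) were shared, against 48.2% of the control and 60.3% of the asthmatic start peaks of all genes. A start lay inside the peak for 11 of the 16 control peaks and 7 of the 16 asthmatic peaks. The peaks at Il7, Il6ra, Il3ra and Il31ra also lay within 1000 bp of a start of a noncoding gene. These were Gm16685, Gm42809, Gm48860 and Gm3226, so these peaks cannot be assigned to the interleukin gene alone. Relative to the nearest start, summits lay between -997 and 637 bp in the control list and between -986 and 358 bp in the asthmatic list, negative values being upstream. The peak nearest to the limit of 1000 bp on its inner side was the intronic peak of Il15ra at 951 bp, and the nearest on its outer side was the Il31ra intron peak at 2261 bp, followed by a repeat-masked peak near Il23r at 2977 bp.

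In the control list the 14 marked genes had a median −log10 q of 12.2 (range 7.94 to 24.3), against 13.8 for all marked genes. Their strongest peaks had 24 summit fragments in the median (16 to 36), against 26 (9 to 380), and stood at a median percentile of 38.7. In the asthmatic list the 12 marked genes had a median −log10 q of 7.06 (4.38 to 17.3), against 8.07. They had 15.5 fragments in the median (11 to 28), against 17 (8 to 312), at a median percentile of 35.0. The widest start peak of each gene measured 617 bp in the median in the control list (all genes 546 bp) and 403.5 bp in the asthmatic list (all genes 353 bp). Above the middle of all marked genes by −log10 q lay 6 of the 14 genes in the control list and 5 of the 12 in the asthmatic list. Ranked by fold instead, the median percentiles were 47.1 and 32.4, and ranked by width they were 61.7 and 61.6, above the middle in both lists.

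**Figure D3:**
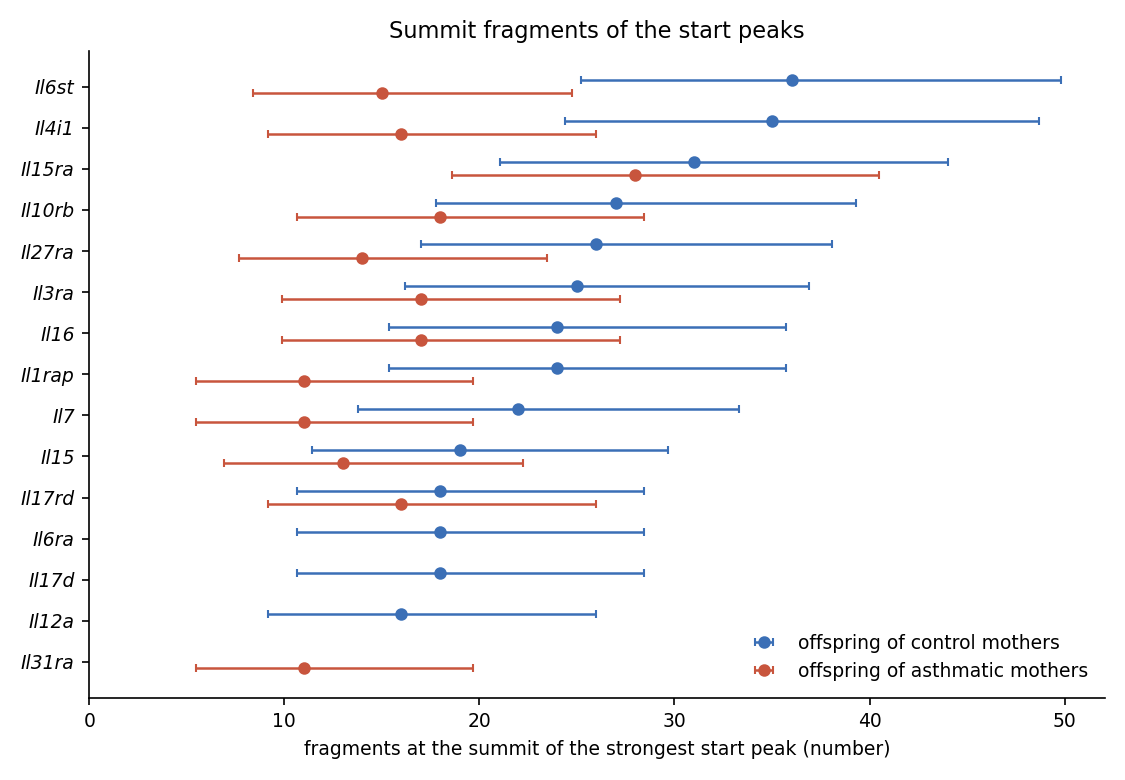
Fragments at the summit of the strongest start peak (x axis) of the 15 marked genes. Points are single libraries, blue for adult offspring of control mothers and red for those of asthmatic mothers, with exact Poisson 95% intervals. All 11 genes marked in both have fewer fragments in red, and only at Il6st do the intervals not overlap. At Il6st the blue point is the exon peak and the red point the upstream peak.

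All 11 genes marked in both lists had fewer summit fragments in adult offspring of asthmatic mothers, with a median ratio of 0.667 (0.417 to 0.903). This was shared with the genome, since 97.3% of the 8968 genes marked in both lists had fewer, with a median ratio of 0.611. The intervals overlapped at 10 of the 11 genes, the exception being Il6st. There the strongest peak was the exon peak in the control list and the upstream peak in the asthmatic list. Fragments were not scaled for depth. The width was likewise lower at all 11 genes, with a median ratio of 0.657, against 0.645 over all genes, of which 93.4% were narrower.

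Ranks within each list moved both ways. Il15ra, Il16, Il17rd, Il10rb and Il15 stood higher in the asthmatic list, 5 of 11 genes, and Il6st, Il1rap, Il4i1, Il7, Il27ra and Il3ra stood lower. Il16 went from the 19.8 to the 52.6 percentile and Il17rd, from a like rank in the control list, to 51.5. Il4i1 went from 95.9 to 50.8. The median shift of the 11 genes was -13.2 percentile points, against -4.59 over all genes, for which the middle 90% ran from -56.2 to 42.9. Il6st lay outside that range, Il1rap at its lower edge and the other 9 genes inside it.

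**Figure D4:**
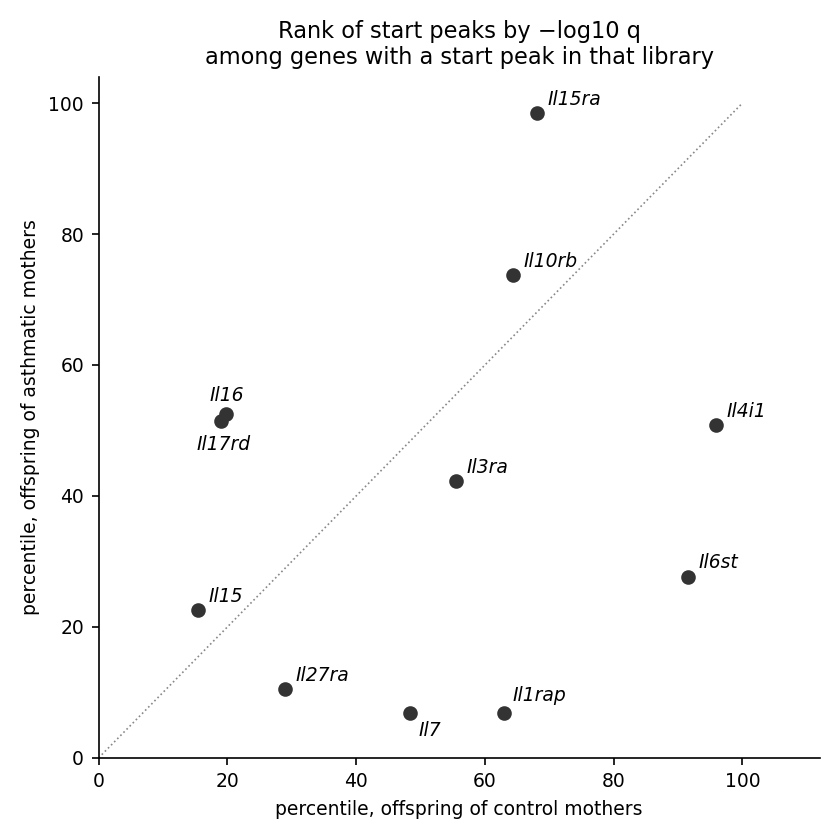
Percentile of the strongest start peak by −log10 q among all marked genes, in adult offspring of control mothers (x axis) and of asthmatic mothers (y axis), for the 11 interleukin genes marked in both lists. Each point is 1 gene and the dotted line marks equal rank; Il15ra lies farthest up at 98.5, and Il1rap and Il7 lowest at 6.78.

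Of the 14 genes marked in the control list, 11 (78.6%, 95% interval 49.2 to 95.3%) were marked in the asthmatic list, against 82.1% of all genes. The 3 that were not had a control −log10 q between 7.94 and 9.76, a range that also held Il15 (8.47), Il17rd (9.17) and Il16 (9.36), which were marked in both. Among genes with a control −log10 q within 0.5 of that of Il12a (7.94), 45.6% had no asthmatic start peak, and the shares were 34.9% for the level of Il6ra (9.30) and 28.4% for that of Il17d (9.76). In the other direction, 91.7% of the 12 genes of the asthmatic list were marked in the control list, against 98.5% of all genes. Among genes with an asthmatic −log10 q within 0.5 of that of Il31ra (4.38), 4.19% had no control start peak.

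CG content, which was not used to choose the genes, was higher at marked than at unmarked interleukin genes. In the 300 bases around the annotated 5′ end, the 15 genes marked in either list had a median of 11 CG (3 to 35) and the 41 unmarked genes a median of 4 (0 to 12). Over all autosomal protein-coding genes the medians were 20 for marked and 4 for unmarked genes. Il4i1, Il6st, Il1rap, Il3ra and Il6ra had 25 or more CG, and no unmarked interleukin gene had more than 12. At some genes another start lay nearer to the summit than the 5′ end did: Il12a had 3 CG at its 5′ end and 16 at the start nearest its summit, and Il7 had 7 and 25. At Il16 the marked inner start had 4.

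Interleukin genes were concentrated among CG-poor genes, with 50% of them having 0 to 4 CG against 29.9% of all genes. Within that class, 1 of 28 interleukin genes had a start peak in the control list (3.57%, 95% interval 0.0904 to 18.3%), against 13.1% of all genes, and 0 of 28 in the asthmatic list, with an upper bound of 12.3%, against 10.7%. With 5 to 9 CG the counts were 5 and 6 of 18, against 36.6% and 28.6% of all genes. With 10 to 19 CG they were 3 and 2 of 5, against 69.7% and 55.6%. With 20 or more CG they were 5 and 4 of 5, against 84.6% and 73.4%. In every class and in both lists the share of all genes lay within the 95% interval of the interleukin genes.

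**Figure D5:**
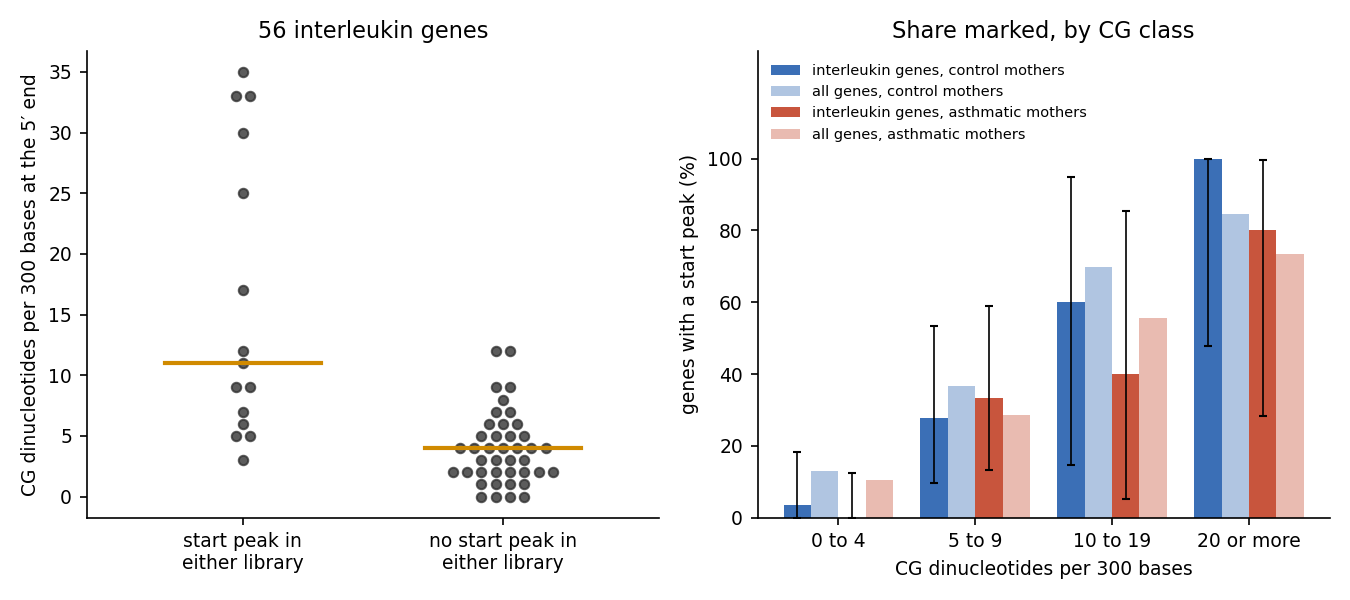
Left, CG dinucleotides per 300 bases at the annotated 5′ end (y axis) of 15 marked and 41 unmarked interleukin genes, 1 point per gene and medians of 11 and 4 as lines. Right, percentage of genes with a start peak (y axis) by class of CG count (x axis), dark for the interleukin genes with exact Clopper-Pearson 95% intervals and pale for all genes, blue for control and red for asthmatic mothers; in both the share rises from the CG-poorest to the CG-richest class.

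Short motifs were looked for on both strands of the same 300 bases. The GC box GGGCGG, which contains a CG itself, was found at 9 of 15 marked (60%) and 6 of 41 unmarked interleukin genes (14.6%), against 62.0% of all marked and 23.0% of all unmarked genes, and 43.7% of all genes together. The TATA box TATAAA was found at 0 of 15 marked and 8 of 41 unmarked genes (Il1a, Il1b, Il2, Il17a, Il17c, Il17re, Il22 and Il33). The unmarked share of 19.5% was like that of all unmarked genes (19.3%), while 6.92% of all marked genes and 12.7% of all genes held it. The AP-1 motif TGANTCA was found at 0 of 15 and 7 of 41 (17.1%), against 4.25% of all marked and 9.85% of all unmarked genes, and 6.88% of all genes. The GATA motif AGATAA was found at 1 of 15 (Il6ra) and 6 of 41, and at 9.94% of all. The STAT motif TTCNNNGAA was found at 1 of 15 (Il17d) and 6 of 41, and at 8.01% of all. For CCAAT the counts were 4 and 14, and 38.6% of all genes. For the ETS motif CCGGAAG they were 2 (Il15ra and Il4i1) and 3, and 11.0%. The RUNX motif TGTGGT was found at 2 and 8 and at 15.4% of all genes, the NRF1 motif GCATGCGC at 1 and 0 and at 3.45%, and the NF-kappaB motif GGANTTTCC at 0 and 0 and at 1.24%. A match describes these letters only.

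Of the 41 genes without a start peak, 29 had no peak in the gene or within 10000 bp of a start either. Peaks elsewhere in or near the 56 genes numbered 20 at 12 genes in the control list and 29 at 16 genes in the asthmatic list. Of the control peaks 11 lay at the start of another coding gene, such as Dctn3 within the long annotated span of Il11ra1, and 8 were mostly repeat-masked. Of the asthmatic peaks 7 lay at another coding start and 20 were mostly repeat-masked, among them peaks near Il20, Il1f9, Il1f10 and Il1rn and in introns of Il23r, Il20ra and Il16. What remained were the Il31ra intron peaks of both lists and 1 asthmatic peak in an intron of Il12b, which encodes the p40 chain of IL-12 and IL-23 (chr11:44407469-44407626, −log10 q of 6.86). Near Il11 the peak lay at the start of Tmem238, 6087 bp away in the control list.

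Of 20 further genes that work with these receptors, chiefly partner chains and adaptors, 11 had a start peak in each list. The shares of all autosomal protein-coding genes were 52.5% in the control list and 43.7% in the asthmatic list. Il2rg, Il13ra1 and Irak1 lie on chromosome X and so outside those genes. The signalling adaptors Myd88, Irak1, Irak2, Irak4, Traf6, Traf3ip2 and Tollip were marked in both, as were the chains Crlf2 of the TSLP receptor and Ifnar2. Il2rg, the common gamma chain that completes the IL-7 receptor, and Sigirr, an inhibitory member of the IL-1 receptor family, were marked in the control list alone, at −log10 q of 9.66 and 7.46 (9.37% of all autosomal genes were). Csf2rb, the shared chain of the IL-3, IL-5 and GM-CSF receptors, and Osmr were marked in the asthmatic list alone, at 6.00 and 5.17 (0.634% of all genes were). Ebi3, Il13ra1, Csf2rb2, Lifr, Ifnlr1, Csf1r and Cd4 had no start peak in either list.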

How the data were processed

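The data were 1 H3K4me3 library of lung ILC2s per group. The authors trimmed the reads with Trim Galore and Cutadapt, used Bowtie 2 to align them to mm10 (GRCm38) and Sambamba to remove duplicates. A peak list was deposited for each library. The study's reporting summary names these lists among its files and also says that peaks were not called on the ChIP-seq data. The peak caller and its threshold are not given in the sources used here. The deposited score, which for nearly all peaks is the −log10 q times 10 without its decimals, was not used. The deposited fold is a ratio of summit signal to the caller's background. The deposited −log10 p and −log10 q are the caller's p-value and q-value. None of these is scaled between libraries, so genes were ranked within a list. Summit fragments were set side by side unscaled, and 1 alternative applied the same −log10 q limit to both lists. The smallest −log10 q was 2.02 in the control list and 2.01 in the asthmatic list.

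Starts and exons came from GENCODE vM21 on GRCm38. Positions count from 1, and an overlap of 1 bp sufficed for peaks to be shared. Summit fragments were solved from the deposited fold and p under a Poisson model in which 1 is added to the signal and to the background. They are derived values that assume calling without a control, and they met the deposited −log10 p within 0.001 for 100% of the strongest start peaks. Both this step and the search for start peaks were tested on simulated data. Repeat-masked bases came from the reference. Exact copies of the 75 bases at a summit were searched on 21 assembled chromosomes. The rule for genes described in most detail took the 10 with the highest −log10 q and those marked in 1 list alone. The genes, lists and motifs were chosen with earlier results of these data known. Alternatives covered the distance to a start, the starts used, q, repeats, neighbouring coding genes, overlap, ranking and the CG window. With 1 library per group no p-value between groups is given. Python with numpy, pandas, scipy and matplotlib was used.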

Additional observations from a re-analysis of the deposited data

How the results depend on the processing

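No paired analysis was possible because each group had 1 library. Of 63 alternative values, 50 stayed within 1.5 times the value given if counts, or within its 95% interval if shares or medians. With distances of 500 and 2000 bp, with repeat-masked peaks left out or with the 5′ end of the gene alone, every count of marked genes stayed within that limit. The single gene marked in the asthmatic list alone, Il31ra, was lost (0 genes) with starts of protein-coding transcripts only, with −log10 q of at least 5, and, in a setting chosen after seeing the data, with peaks whose summit has no exact copy elsewhere. Leaving out peaks at another coding gene's start made it 2 genes, with Il4i1. With −log10 q of at least 5, 6 genes were marked in the control list alone (12.6% of all genes), Il1rap, Il7 and Il27ra in addition, because their asthmatic peaks lay below that level. Among the 10000 peaks of each list with the highest −log10 p, 7 genes were marked in the control list (33.8% of all genes) and 1, Il15ra, in the asthmatic list (9.82% of all genes). At that setting 1 was marked in both (8.91% of all genes), 6 in the control list alone (24.9%) and 0 in the asthmatic list alone (0.918%). With overlap of at least 50% of both peaks, 50% of the start peaks of either list were shared. Ranked by width, the median percentile was 61.7 in the control list and 61.6 in the asthmatic list, in place of values below the middle. With 500 bases on either side of the 5′ end, marked genes had a median of 5.6 CG per 100 bases in place of 3.67, and unmarked genes 1.1 in place of 1.33.

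The depth of each library is unknown. The smallest summits had 9 fragments in the control library and 8 in the asthmatic library among the 300 weakest peaks, so a start with fewer fragments would not be listed, and an unlisted start is not shown to lack the mark. The widths, counts and ranks rest on 1 library each, from 1 dam per group.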

Other observations

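The intron of Il31ra held another pair of peaks, at chr13:112553923-112554201 in the control list and chr13:112553910-112554194 in the asthmatic list, with 31 and 38 fragments. Both consisted of 100% repeat-masked bases, and the bases around their summits had 1589 and 1621 further exact copies. At 3 other genes an intron peak of mostly repeat-masked bases, beyond 1000 bp of any start, lay in both lists. That of Il16 had 18 fragments in the control list and 28 in the asthmatic list, that of Il1rap had 25 and 31, and that of Il23r had 24 and 21.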
